A study of Mus musculus with 60 samples.

Results

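Flna and Msn are X-linked genes of the actin cytoskeleton, and they were followed here through every library of a study on inducible Xist in female mouse embryonic stem cells (ESCs). They are 2 of the 14383 genes, and of the 490 X-linked genes, listed in the deposited tables. They were chosen from these data, because both are well covered and because their Cast/all ratio moved strongly in clones with the Xist transgene on either X allele. The values that chose them are therefore those of doxycycline-treated against untreated cells in clones of the Tg-E, Tg-X or Tg-X;8 kind, and these are given below as a description with no test. Measures from Tg-12 clones and from neurons were not used in the choice and were tested. Untreated libraries of clone 87 and of the translocation line are 1 arm of the contrast used, so what is given for untreated cells by karyotype is not independent of the choice.

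The study asked how far Xist RNA silences the chromosome it is made from, at its own locus, at other sites on the X or on autosomes. All cells descend from a hybrid female line with 1 X of 129/Sv and 1 X of Cast/Ei origin, so that reads over polymorphic sites can be assigned to an allele, and all carry a transactivator and a doxycycline-inducible Xist transgene. ESCs were kept in medium with LIF and inhibitors of MEK and GSK3, with doxycycline for the treated arm and without it for the untreated arm, and RNA was sequenced as bulk libraries. In Tg-E clones 87 and 68 the inducible promoter replaced the start of the endogenous Xist gene on the Cast X of cells with a normal X pair. In Tg-X clones 85, 86, 109 and 190 the transgene sat on the intact Cast X. Their line carries a translocation of X and chromosome 8, with an extra distal part of Cast chromosome 8 fused to the 129 X. In clones 203b, 267 and 339 of the same line (the Tg-X;8 kind) the transgene sat on this fused chromosome. The study maps it to chromosome 8 sequence in clones 203b and 267, and gives no site for clone 339. Tg-12 clones 228, 273 and 38 came from a line with an extra chromosome 12, and carried the transgene on a chromosome 12. Clones 267 and 160 also kept a Tsix-Stop allele on the 129 X. Clone 160 is labelled with the transgene on the X, whereas the study lists it among the Tg-12 clones, so it was left out of the group tests. Neurons came from lines 20 and 38 of the Tg-12 kind, with 1 untreated and 1 treated library each. Neither number is in the clone list of the study. A figure legend there joins 38 to the number of a listed Tg-12 clone, whose neurons the study sequenced. That legend does not name line 20, so it is not known here whether these lines are separate integrations. Each arm of an ESC clone held 2 libraries that the study describes as biological replicates, except for clone 68 (1 treated library and no untreated one) and clone 203b (1 treated library).

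Filamin A, the product of Flna, cross-links actin filaments into networks and ties them to integrins and other membrane proteins. Moesin, the product of Msn, belongs with ezrin and radixin to the ERM family, which links cortical actin to the plasma membrane once phosphorylated. In female cells both genes are normally subject to X inactivation, in which Xist RNA coats the chromosome it is transcribed from and genes on that chromosome lose expression.

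On the mouse assembly GRCm38.p6, Flna (gene ID 192176) lies on the minus strand at chrX:74223461-74249854, 29.2 Mb from Xist, and Msn (gene ID 17698) lies on the plus strand at chrX:96096045-96168553, 7.29 Mb from Xist. The deposited tables give 1 exon as the coordinate of each gene, which is exon 1 of 46 of Flna transcript NM_010227 and exon 13 of 13 of Msn transcript NM_010833, although reads of all exons were summed. The RefSeq promoter windows of both genes, from 250 bases before to 50 bases after the start, are shown. The ratios of both genes moved upon Xist induction, as did those of many X-linked genes. The windows are read 5′ to 3′ on the strand of the gene, at chrX:74246485-74246784 (minus) and chrX:96095795-96096094 (plus) of GRCm38.p6, and capitals mark each GGGCGG (a GC box) on either strand.
Flna: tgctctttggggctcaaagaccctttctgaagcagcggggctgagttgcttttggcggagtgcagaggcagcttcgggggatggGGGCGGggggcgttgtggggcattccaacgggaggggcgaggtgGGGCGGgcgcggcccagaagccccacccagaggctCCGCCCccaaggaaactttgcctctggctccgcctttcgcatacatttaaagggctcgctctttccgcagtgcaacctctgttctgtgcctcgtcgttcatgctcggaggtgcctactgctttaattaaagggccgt
Msn: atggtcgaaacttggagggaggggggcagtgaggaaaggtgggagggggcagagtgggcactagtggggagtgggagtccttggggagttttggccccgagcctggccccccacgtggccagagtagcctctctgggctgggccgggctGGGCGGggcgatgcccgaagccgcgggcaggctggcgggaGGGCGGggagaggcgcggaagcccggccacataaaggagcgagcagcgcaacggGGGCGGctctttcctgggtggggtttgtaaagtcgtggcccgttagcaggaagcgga
Each window holds 3 GC boxes, which 10.7% of 32851 promoter windows of the same length reach, while 35.7% hold at least 1. Flna has 19 CpG dinucleotides at 62% GC and Msn 21 at 69% GC, beside medians of 7 and 52.7% over all windows. Neither window contains CCAAT or TATAAA on either strand, which 37.4% and 13.6% of windows contain. Msn alone contains CACGTG, an E-box present in 7.15% of windows. These are matches of letters and were not tested as binding sites.

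Allele-specific reads of Flna ranged from 168 to 1889 per ESC library (median 323.5) and those of Msn from 192 to 1183 (median 454.5), which placed them 31st and 16th by median among the 139 X-linked genes listed in all 48 ESC libraries with a condition. The Wilson 95% interval of a ratio in 1 library spanned, at the median, 0.053 to either side for Flna and 0.044 for Msn, and it covers counting error only. Total allele-specific reads ran from 731374 to 5830149 per ESC library. ESC libraries fell into a class with 2.93 to 3.14 HTSeq reads per allele-specific read (30 libraries) and a class with 3.36 to 3.74 (18 libraries). All untreated Tg-X libraries were of the lower class, and each Tg-X clone had 1 treated library of either class, so values within the lower class are given beside the results this touches. Where listed, Xist was at 24.1 to 286 counts per 1000000 (CPM, scaled by TMM) in untreated ESCs, and it was at 201 to 2115 CPM in treated ones, above the untreated libraries of its own clone throughout.

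In cells with the transgene on the Cast X, the Cast/all ratio of both genes moved toward the 129 allele. In Tg-E clone 87, Flna stood at 0.434 and 0.403 in the untreated libraries and at 0.125 and 0.221 in the treated ones, while Msn went from 0.528 and 0.535 to 0.132 and 0.190. The single treated library of Tg-E clone 68 gave 0.183 for Flna and 0.154 for Msn, inside the treated range of clone 87. By clone mean both treated ratios were lowest in these clones, whose transgene uses the endogenous Xist locus, although single libraries of Tg-X clone 109 reached into their range. The mean difference in clone 87 was -0.246 for Flna and -0.370 for Msn against a median of -0.157 over 226 X-linked genes. The arms did not overlap for either gene, which was so for 81.9% of the X-linked genes in this clone.

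The 4 Tg-X clones differed from each other in how far the ratio moved. Flna went from 0.443 and 0.412 to 0.289 and 0.268 in clone 85, and clone 86 took it from 0.439 and 0.461 to 0.321 and 0.345. It went from 0.452 and 0.399 to 0.229 and 0.218 in clone 109, whereas clone 190 had 0.460 and 0.444 untreated against 0.337 and 0.305 treated. All 8 treated libraries lay under all 8 untreated ones, as they did for 21.8% of X-linked genes, and clone 109 was the lowest. The mean shift of Flna was -0.150 ± 0.037 (SD, n = 4 clones). Msn went from 0.481 and 0.486 to 0.284 and 0.239 in clone 85, and clone 86 took it from 0.505 and 0.554 to 0.379 and 0.389. In clone 109 its ratio went from 0.515 and 0.512 to 0.136 and 0.316, while clone 190 had 0.507 and 0.453 untreated against 0.292 and 0.361 treated. The treated libraries of Msn again lay under the untreated ones throughout, but those of clone 109 stood further apart than the treated libraries of any other Tg-X clone. Its mean shift was -0.202 ± 0.066 (SD, n = 4). Within the lower read class the shifts were -0.161 for Flna and -0.178 for Msn.

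Where the chromosome of the 129 allele carried the transgene, as in Tg-X;8 clones, both ratios moved the other way. Flna went from 0.446 and 0.428 to 0.562 in clone 203b. Clone 267 took it from 0.494 and 0.450 to 0.594 and 0.662, and clone 339 had 0.425 and 0.417 untreated against 0.530 and 0.568 treated. Msn went from 0.578 and 0.569 to 0.727, from 0.621 and 0.599 to 0.749 and 0.753, and from 0.478 and 0.524 to 0.652 and 0.670 in the same clones. Every treated library lay above every untreated one for both genes, as was so for 13.5% of X-linked genes. The mean shift toward Cast was 0.136 ± 0.017 for Flna and 0.152 ± 0.0095 for Msn (SD, n = 3 clones).

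**Figure D1:**
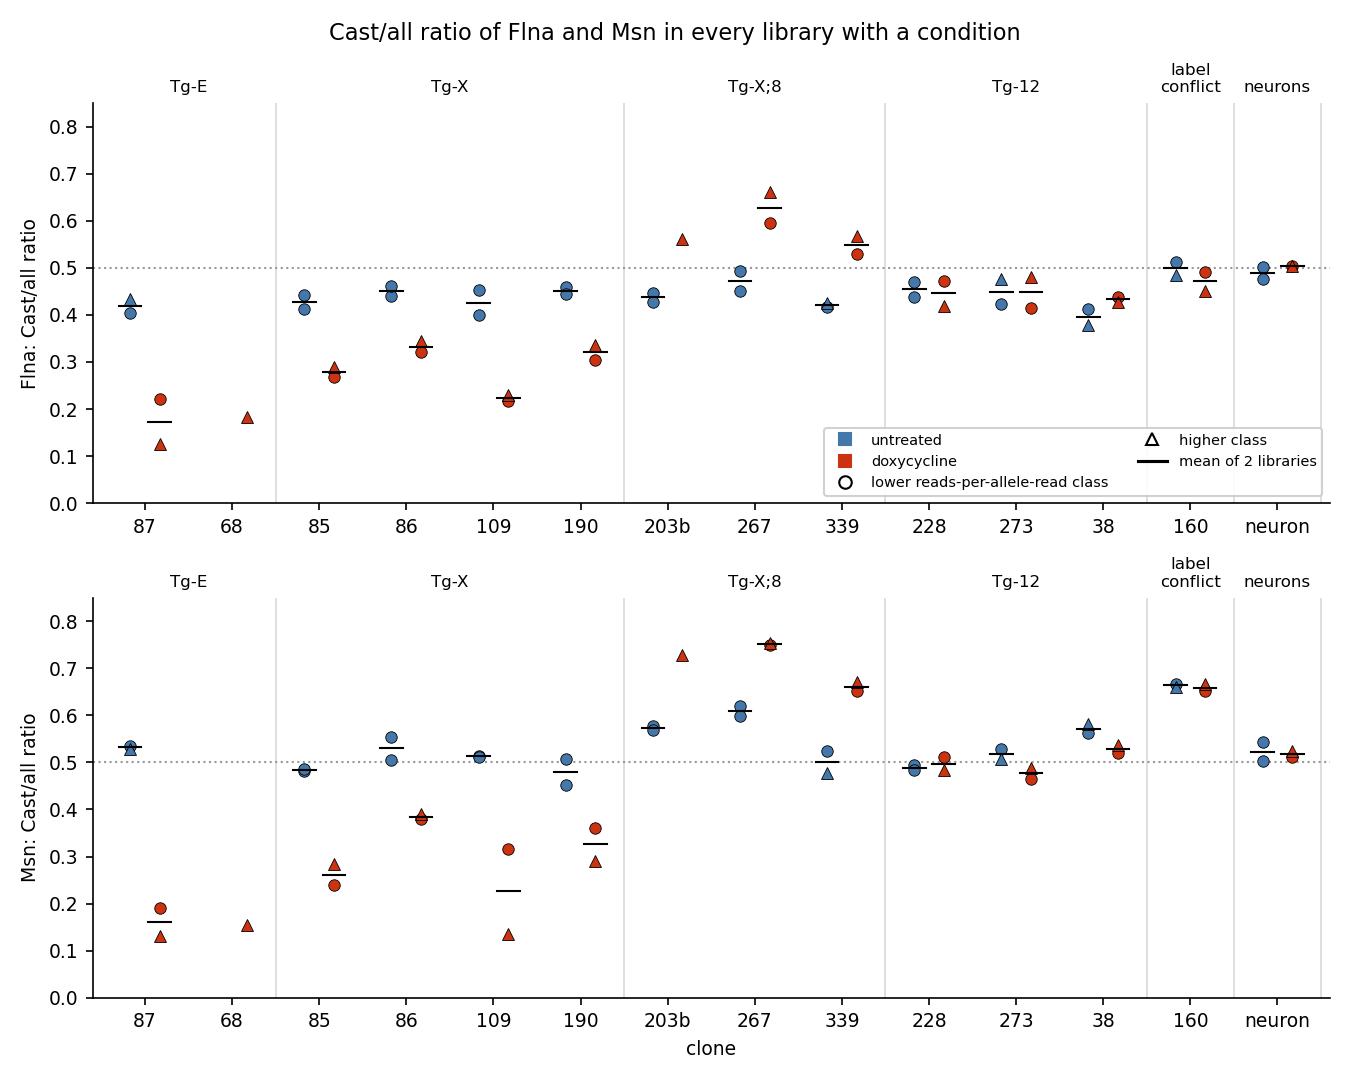
Cast/all ratio of Flna (top) and Msn (bottom) in every ESC and neuron library with a condition, by clone, untreated (blue) and doxycycline-treated (red). Circles and triangles are libraries with fewer and with more HTSeq reads per allele-specific read, black bars are means of 2 libraries, and the dotted line is equal expression of both alleles. The treated libraries of clone 87 and of the 4 Tg-X clones lie under the untreated ones, those of the 3 Tg-X;8 clones above them, and those of the 3 Tg-12 clones stay between 0.415 and 0.536.

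These shifts were ranked among those of other X-linked genes. By size of loss on the transgene side, Flna was 32nd and Msn 11th of 156 X-linked genes in Tg-X clones, where the median was -0.091. In Tg-X;8 clones they were 29th and 20th of 185, with a median of -0.046. Bulk libraries cannot tell a partial loss in every cell from a full loss in some of the cells.

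The 2 alleles were then followed separately, as reads per 1000000 allele-specific reads (RPM, scaled by TMM). For Flna, the allele without the transgene was higher in all 4 Tg-X clones, while the allele with it was lower in some clones and higher in others. The untreated and treated means of the 129 allele were 97.2 and 165 RPM in clone 85, 101 and 222 RPM for clone 86, 120 and 254 RPM for clone 109, and 110 and 206 RPM for clone 190. These are folds of 1.70 to 2.21, with no overlap between arms in any of the 4 clones (4.49% of X-linked genes), and a mean log2 difference of 0.97 ± 0.17 (SD, n = 4). The same allele of X-linked genes had a median log2 difference of 0.01, and Flna stood above 91.3% to 98.8% of them in each clone. The Cast allele of Flna, which shared a chromosome with the transgene, differed by a mean log2 of 0.01 ± 0.33, from -0.32 in clone 109 to 0.42 in clone 86, where the X-linked median was -0.67. Within the lower read class the 129 allele of Flna was still higher, by 0.82 ± 0.29 on the log2 scale, and the Cast allele differed by -0.23 ± 0.56. Clone 109 stood out there, with -0.93 for the Cast and 0.53 for the 129 allele, so the loss on the transgene allele was the larger part in its treated library of the lower class.

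Msn showed both movements. Its Cast allele differed by a mean log2 of -0.68 ± 0.41 in Tg-X clones, next to the X-linked median, from -1.19 in clone 85 (174 to 76.1 RPM) to -0.19 in clone 86 (161 to 140). Its 129 allele differed by 0.55 ± 0.41, from 0.20 in clone 85 to 1.08 in clone 109. Within the lower read class the Cast allele of Msn differed by -0.56 ± 0.58 and its 129 allele by 0.53 ± 0.44. In clone 109 the Cast allele of Msn stood at 36.1 RPM in the treated library of the higher class and at 105 in that of the lower class, beside 130 and 98.5 in the untreated libraries, so the loss in this clone rests on 1 of its 2 treated libraries.

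In Tg-E clone 87 the Cast allele of Msn went from 150 to 33.4 RPM, a log2 difference of -2.17 where the X-linked median was -1.02, and that of Flna from 85.3 to 53.8 (-0.66). The 129 allele went from 116 to 284 for Flna (1.29) and from 132 to 177 for Msn (0.42). By read class, with 1 library per arm, the Cast allele of Flna differed by -0.18 in the lower and -1.02 in the higher class. Its 129 allele differed by 1.07 and 1.41, and the Cast allele of Msn by -1.88 and -2.46. Msn thus lost more than the typical X-linked gene on the transgene allele in this clone, whereas the other allele of Flna was above 99.1% of X-linked genes. The 3 Tg-X;8 clones varied among themselves. The Cast allele of Flna, here the one without the transgene, had untreated and treated means of 77.9 and 156 RPM in clone 203b, 71.0 and 107 RPM for clone 267, and 82.7 and 85.2 RPM for clone 339, while its 129 allele went from 101 to 122, from 80.0 to 62.1 and from 114 to 70.5. For Msn the 129 allele went from 149 to 117, from 117 to 68.6 and from 172 to 82.9. Within the lower read class clone 339 gave log2 differences of 0.24 for the Cast and -0.42 for the 129 allele of Flna, and clone 267 gave 0.28 and -0.44. Within the higher class clone 339, with 1 library per arm, gave -0.16 for the Cast and -0.99 for the 129 allele of Flna. The single treated library of clone 203b was of the higher class and both untreated ones of the lower, so read class and treatment cannot be told apart in that clone.

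**Figure D2:**
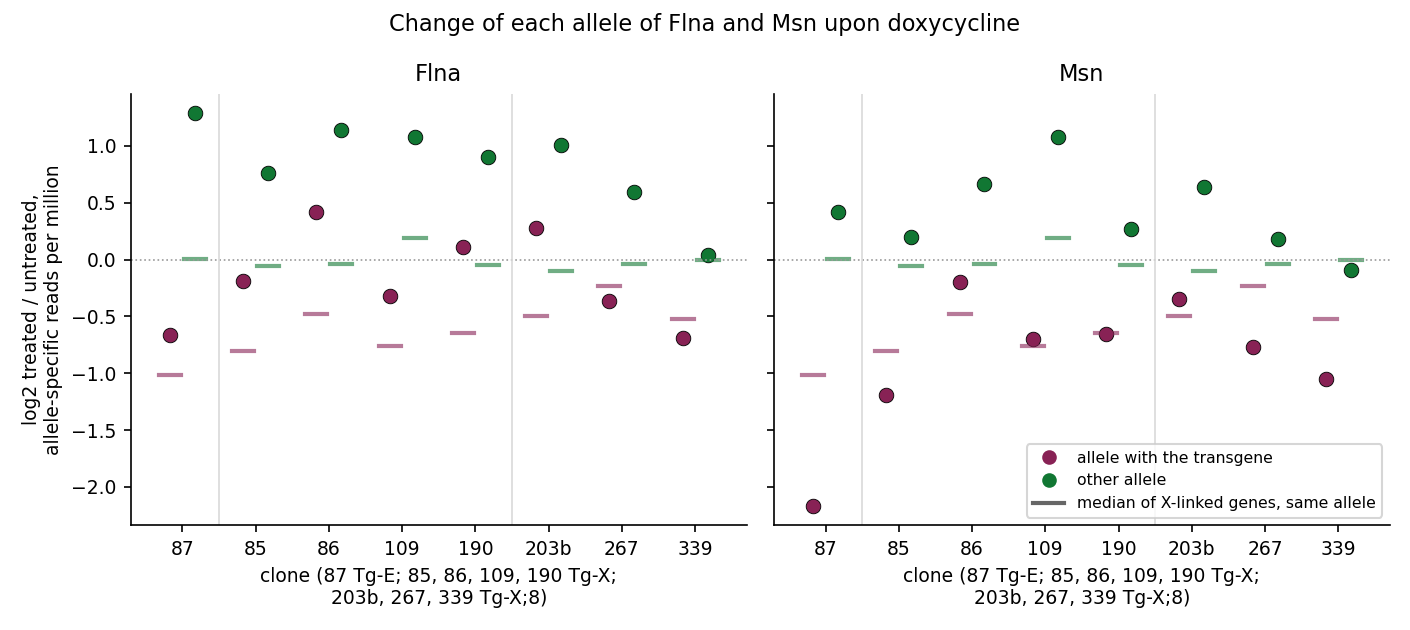
Log2 difference, treated over untreated, of the transgene allele (purple) and of the other allele (green) of Flna (left) and Msn (right) in RPM, with 1 pair of points per clone. Short bars are the medians of X-linked genes for the same allele and clone, and the dotted line is no difference. The other allele of Flna lies above its bar in all 8 clones, with 0.04 in clone 339 as the smallest value, and the transgene allele of Msn ranges from -2.17 in clone 87 to -0.19 in clone 86.

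Total levels were then compared. HTSeq levels of Flna went from 257 and 240 CPM to 368 and 317 CPM in Tg-X clone 85, and clone 86 took them from 262 and 270 to 493 and 484 CPM. Clone 109 had 381 and 235 CPM untreated against 711 and 275 CPM treated, and clone 190 had 301 and 306 against 525 and 371 CPM. The treated libraries lay above the untreated ones in 3 of 4 clones, which 7.05% of X-linked genes reached, and the treated libraries of clone 109 lay on either side of an untreated one. The mean log2 difference was 0.65 ± 0.18 (SD, n = 4), beside an X-linked median of -0.30, and 0.34 ± 0.43 within the lower read class, in which clone 109 gave -0.16. The part of the read class in the level of Flna was not tested. Msn gave a mean log2 difference of 0.03 ± 0.33 (n = 4), with clones 85 and 190 lower and clones 86 and 109 higher. Within the lower read class that of Msn was -0.02 ± 0.40. In the Tg-X;8 clones Flna differed by 0.81 (clone 203b), 0.19 (clone 267) and -0.41 (clone 339) on the log2 scale, and Msn by 0.13, 0.11 and -0.61. Within the lower read class the values of Flna were 0.16 in clone 267 and -0.13 in clone 339, and clone 203b has no untreated library of the class of its treated one. Within the higher class clone 339 gave -0.67 for Flna, with 1 library per arm.

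**Figure D3:**
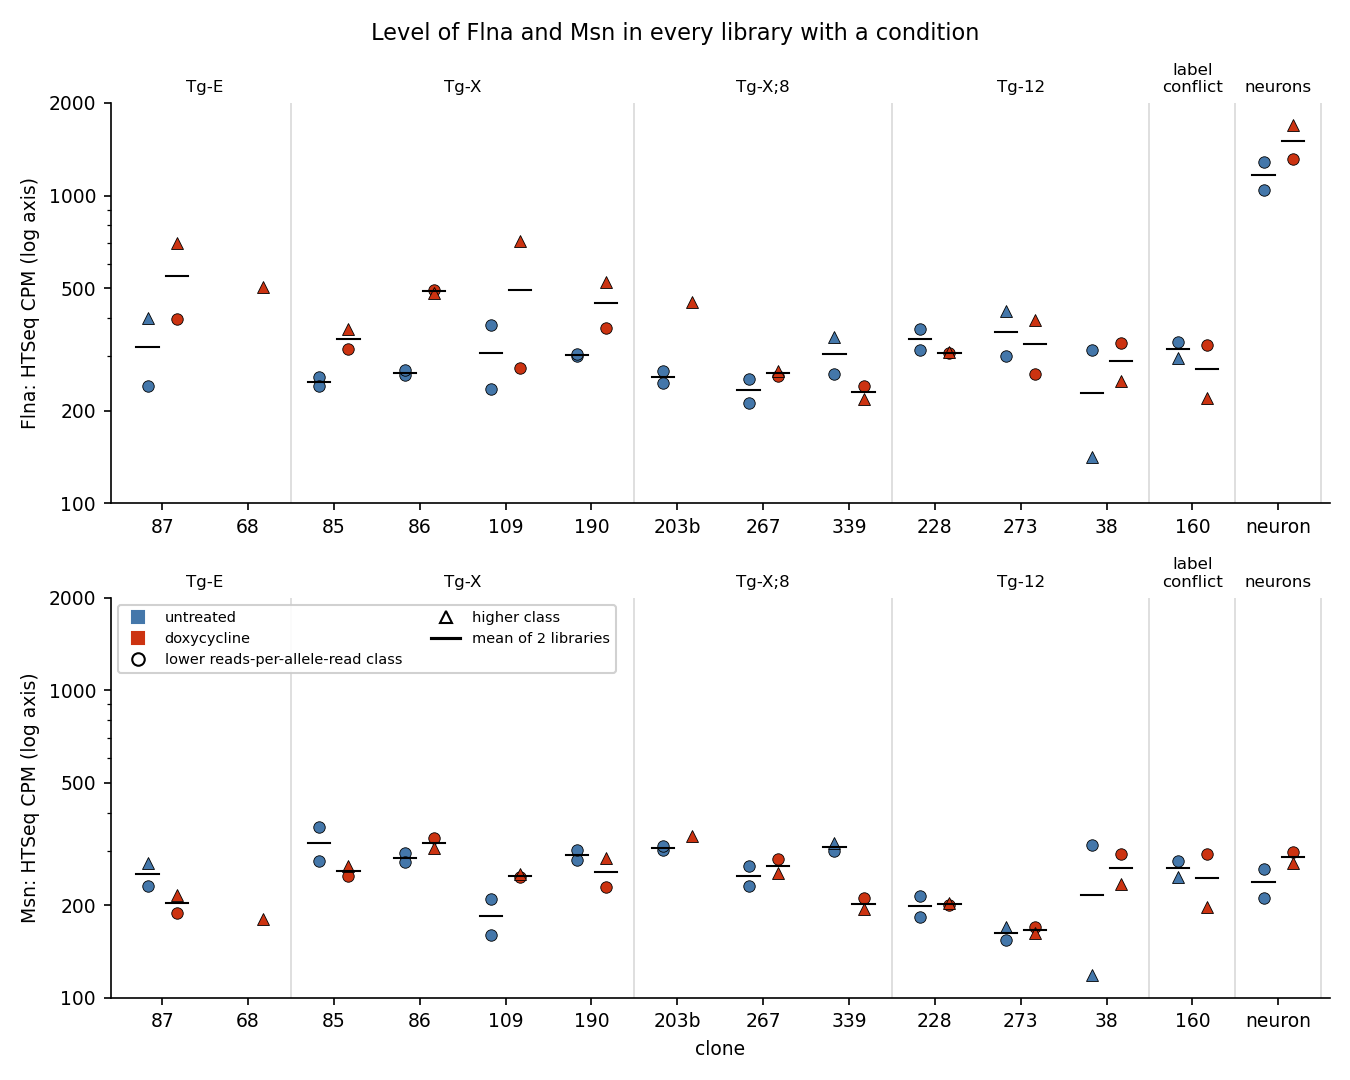
HTSeq level of Flna (top) and Msn (bottom) in CPM, on a log axis, in every library with a condition, with colours, symbols and bars as in the plot of ratios. Flna lies between 141 and 711 CPM in ESCs and between 1043 and 1693 CPM in neurons, whereas the neurons lie within the ESC range of 118 to 359 CPM for Msn.

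Tg-12 clones ask whether doxycycline and Xist induced from another chromosome move these genes, and no change was called for either of them. For Flna the untreated ratios were 0.438 and 0.470 in clone 228, 0.477 and 0.423 in clone 273, and 0.412 and 0.378 in clone 38, and the treated ones were 0.419 and 0.472, 0.415 and 0.481, and 0.438 and 0.428. The arms overlapped in clones 228 and 273. For Msn the untreated ratios were 0.494 and 0.484, 0.507 and 0.528, and 0.562 and 0.582, and the treated ones 0.483 and 0.511, 0.466 and 0.488, and 0.520 and 0.536. Msn was lower in both treated libraries of clones 273 and 38, and overlapped in clone 228. Of the X-linked genes, 9.66% were lower without overlap in at least 2 of these 3 clones. Over the 3 clones, the log2 ratio of Cast to 129 reads changed by 0.05 ± 0.11 (SE; 95% interval -0.17 to 0.26; adjusted p = 0.993) for Flna and by -0.15 ± 0.10 (-0.34 to 0.04; adjusted p = 0.936) for Msn, by the quasi-likelihood test of edgeR (Benjamini-Hochberg adjusted). Of all 5142 genes tested, 0.0778% were called. For the ratio of Msn alone, the mean difference of -0.025 had p = 0.0556 in an exact two-sided permutation of treatment within clones (216 permutations), and that of Flna, 0.009, had p = 0.611. Levels changed by 0.02 ± 0.19 for Flna (-0.36 to 0.39; adjusted p = 0.993) and by 0.11 ± 0.18 for Msn (-0.25 to 0.46; adjusted p = 0.911) on the log2 scale in the same test, with 0.0781% of 5123 genes called. Unadjusted p-values were above 0.05 for both genes in both tests, and DESeq2 called neither. An untreated library of clone 38, replicate 2, was the lowest ESC library for both levels (141 CPM for Flna and 118 for Msn), and without it the level differences were -0.14 and -0.05.

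In untreated ESCs the Flna ratio lay on the 129 side of equal expression, and the Msn ratio on either side of it by clone. Clone means of the Flna ratio ran from 0.395 in clone 38 to 0.499 in clone 160, under 0.5 in all 12 clones, and neighbours in that order overlapped at every step. Msn ran from 0.480 in clone 190 to 0.664 in clone 160. The means of clones 38 (0.572) and 203b (0.573) overlapped each other and stood clear of clone 87 (0.532), and clones 267 (0.610) and 160, those with the Tsix-Stop allele, each stood clear of the next lower clone. Between the 7 clones of the translocation line and 4 others (87, 228, 273 and 38), the mean ratios differed by 0.011 for Flna and by -0.0001 for Msn, less than the SD between clones of either set. The level of Msn was higher in the translocation line, at 8.09 ± 0.28 (SD, n = 7) against 7.63 ± 0.26 (n = 4) log2 CPM, a difference of 0.46 (exact two-sided permutation p = 0.0364, 330 permutations, of which the smallest possible p is 0.00303). By the same exact permutation, that call did not hold within the lower read class (0.33, p = 0.145) or without the low untreated library of clone 38 (0.28, p = 0.227), and it was lost with most single clones left out. Levels of Flna differed by -0.14 (exact permutation p = 0.376), and by -0.28 (p = 0.00606) without the same library. The 7 clones share a parent line, and clones 228, 273 and 38 share another. Karyotype and parent line therefore cannot be told apart, and these permutations treat clones of the same line as separate units.

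Neurons showed a higher level of Flna, a Cast/all ratio of Flna closer to equal in bulk, and no called change of Msn. A bulk ratio cannot tell use of both alleles in each cell from use of a single allele per cell. Xist was at 622 to 1223 CPM in untreated and 1669 to 2495 CPM in treated neurons, and was not listed in untreated clone 38 ESCs. Flna stood at 315, 141, 332 and 249 CPM in the ESC libraries of clone 38 and at 1290, 1043, 1693 and 1311 CPM in the neurons. The lowest neuron library lay above the highest of all ESC libraries, 711 CPM, and the 2 groups of 4 did not overlap for 22.4% of genes in this direction. Flna rose 5.09-fold (log2 2.35 ± 0.26, SE; adjusted p = 0.00026, edgeR), where 16.6% of 6727 genes were called higher. This fit took the 4 ESC libraries of clone 38 and the 4 neuron libraries as separate replicates. Its p-values measure scatter between libraries, and variation between clones or differentiations was not tested. The same holds for the ratio and list tests of neurons against ESCs below. Msn stood at 313, 118, 293 and 233 CPM in the ESCs and at 263, 211, 275 and 297 CPM in the neurons. The neurons lay inside the ESC range, with a log2 difference of 0.11 ± 0.26 (95% interval -0.40 to 0.62; adjusted p = 0.757).

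The Cast/all ratio of Flna was 0.412, 0.378, 0.438 and 0.428 in these ESCs and 0.476, 0.501, 0.503 and 0.504 in the neurons, with no overlap in this direction as for 6.89% of genes. The log2 ratio of Cast to 129 reads rose by 0.47 ± 0.09 (SE; adjusted p = 0.0102, edgeR), where 2.77% of 6775 genes were called toward Cast. The same contrast gave 0.42 (adjusted p = 0.133) with libraries of the lower read class and 0.53 (adjusted p = 0.175) with untreated libraries only, whereas with each of the 8 libraries left out in turn it was still called (adjusted p = 0.0171 to 0.0353). For Msn the ratio was 0.550 ± 0.027 in ESCs and 0.521 ± 0.017 in neurons (SD, n = 4 each), a log2 difference of -0.17 ± 0.10 (adjusted p = 0.412). Within the neurons doxycycline gave log2 differences of 0.09 ± 0.08 for Flna and -0.03 ± 0.11 for Msn (adjusted p = 1 for both, unadjusted p = 0.306 and 0.816), with 1.14% of 11157 genes called and neither gene called by DESeq2.

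Markers of several cell types also differed between the neuron libraries and clone 38 ESCs. The name neurons is that of the labels. Of 10 neuronal markers, 6 were listed in every neuron library and Stmn2 was listed in none. Their summed level was 44.4 to 66.5 CPM in clone 38 ESCs and 122 to 802 CPM in neurons. Over all ESC libraries the sum reached 144 CPM untreated and 178 CPM treated, above the treated neuron library of line 38 (122 CPM). All 10 ESC markers were still listed, at a sum of 2321 to 4221 CPM against 8147 to 12790 CPM in the ESCs. None of 6 mesenchymal or fibroblast markers was listed in clone 38 ESCs, and their sum was 147 to 684 CPM in the neurons. The summed levels of 5 endoderm markers went from 0 to 16.7 CPM in the ESCs to 103 to 324 CPM. Genes under 8 allele-specific reads were not listed and added nothing to a sum. Neuron libraries held 7068712 to 10698003 allele-specific reads, against 1123886 to 2130938 in clone 38 ESCs. Weak markers could therefore be listed at a lower level in neurons, and the part of depth in these sums was not tested. The untreated library of line 38 had the lowest Flna level (1043 CPM) and stood apart in several lists at once. Its sums were 802 CPM for neuronal markers (122 to 243 CPM in the other neuron libraries), 684 CPM for mesenchymal ones (147 to 308 CPM) and 716 CPM for 6 astrocyte or radial glia markers (48.1 to 78.9 CPM), and its ESC marker sum was the lowest. Clone 38 ESCs had 77.8 to 106 CPM for the astrocyte or radial glia markers. The part of each cell type in the level of Flna was not tested, and no ESC library of line 20 was analysed here.

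Other cytoskeletal genes give the setting of the 2 members. Of 35 further X-linked cytoskeletal genes, 29 were listed and 7 could be tested in Tg-X clones, of which 5 moved toward 129 and 2 were not called. X-linked genes as a whole were called toward 129 in 50.6% of 156. Kif4, a kinesin motor, went from a ratio of 0.499 ± 0.030 to 0.358 ± 0.058 (SD, n = 8 libraries per arm; adjusted p = 0.00029, edgeR). Dmd, which encodes dystrophin, went from 0.446 ± 0.092 to 0.262 ± 0.100, and Fhl1, a LIM-domain gene, from 0.372 ± 0.087 to 0.196 ± 0.087. Klhl13, an adaptor of a ubiquitin ligase, and Vbp1, a prefoldin subunit, moved less, from 0.608 to 0.491 and from 0.488 to 0.368. Emd, which encodes the nuclear envelope protein emerin, gave 0.413 and 0.358 (adjusted p = 0.159) and was among those not called. The median log2 change of these 7 genes was -0.70, beside -0.63 over the 154 X-linked genes tested other than Flna and Msn.

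In clone 87, 4 of 11 such genes moved toward 129 (Fhl1, Kif4, Pls3 and Shroom2), where 30.5% of 226 X-linked genes were called, and DESeq2 called 0 of them. Pls3 and Shroom2 are named after their values were seen. The actin bundler Pls3 went from 0.583 to 0.139 and the actin-binding gene Shroom2 from 0.519 to 0.230. In Tg-X;8 clones 0 of 7 were called by edgeR or DESeq2, 3 had an unadjusted p under 0.05, and 15.1% of 185 X-linked genes were called toward Cast. Their median log2 change was 0.38 toward Cast, beside 0.28. In Tg-12 clones 0 of 9 were called by either tool, and 0 at an unadjusted p under 0.05, where edgeR called 0 of 176 X-linked genes.

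Genes within 1 Mb on the chromosome were compared in the same fits. Around Flna, 8 genes were tested, of which 3 moved toward 129 in Tg-X clones, Lage3 (0.524 to 0.421) and Irak1 (0.535 to 0.438) among them, where 50.6% of 156 X-linked genes were called. Irak1 was also called in clone 87 (adjusted p = 0.0449, edgeR). Fam50a, Ikbkg, G6pdx and Emd, the nearest at 4.82 kb, were among those not called. Around Msn a single gene, Las1l, which acts in ribosome assembly, was tested, and it moved toward 129 in Tg-X clones (0.438 to 0.324; adjusted p = 0.0258) and in clone 87 (0.480 to 0.268; adjusted p = 0.0439). None of these 9 genes was called in Tg-X;8 or Tg-12 clones by edgeR or DESeq2, with 3 and 1 of them at an unadjusted p under 0.05. Of X-linked genes, edgeR called 15.1% of 185 toward Cast in Tg-X;8 clones and 0 of 176 in Tg-12 clones.

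The autosomal genes that encode relatives and partners of filamin A and moesin were followed by level, in a list of 57 of which 54 were listed. In Tg-X clones 10 of 41 rose and 5 fell upon doxycycline (36.6%), where 41.3% of all 5723 genes were called, 21.3% higher and 20% lower. Tln1, encoding the integrin activator talin, rose from 112 ± 18.6 to 201 ± 38.2 CPM (SD, n = 8; log2 0.82 ± 0.10, SE). Slc9a3r1, an ERM-binding scaffold, rose by 0.76 ± 0.20 and Pxn, encoding the adhesion protein paxillin, by 0.55 ± 0.09 on the log2 scale. The ERM-binding membrane protein genes Pdpn and Icam1 fell by 0.82 and 0.69, and Tpm1, a tropomyosin gene, by 0.66. The ERM paralogs Ezr (-0.01 ± 0.08, adjusted p = 0.953) and Rdx (-0.10 ± 0.09, adjusted p = 0.364) were not called.

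In Tg-X;8 clones 6 of 40 list genes were called (15%), where 6.44% of 6067 genes were, 3.54% higher and 2.9% lower. Slc9a3r1 (0.48 ± 0.11) and Actn4 (0.29 ± 0.08), encoding an actinin, rose. Icam1, Pdpn, the integrin gene Itgb1 and Tpm4 fell, by 0.64, 0.51, 0.45 and 0.34 on the log2 scale. List genes on chromosome 8, such as Itgb1, can lie on the part that is fused to the transgene chromosome in these clones. The list was not split by chromosome, and the part of silencing in cis in these calls was not tested. Ezr and Rdx gave -0.17 ± 0.06 and -0.16 ± 0.09 (adjusted p = 0.134 and 0.291). In Tg-12 clones 0 of 37 were called by edgeR and 1 by DESeq2, with 5 at an unadjusted p under 0.05. Of all 5123 genes tested there, edgeR called 0.0781% and DESeq2 called 106.

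In neurons against clone 38 ESCs, 22 of 44 list genes rose and 5 fell (61.4%), where 34.6% of all genes were called, 16.6% higher and 18% lower. Unlike Msn, the other ERM genes Ezr (0.93 ± 0.19, adjusted p = 0.00689) and Rdx (0.95 ± 0.16, adjusted p = 0.00258, edgeR) were called higher, although the difference between them and Msn was not tested. The tropomyosin genes Tpm1 and Tpm4 rose by 2.83 and 1.94, the actin-binding gene Cald1 by 2.40 and the adhesion gene Vcl by 1.74, while Icam1 fell by 1.90 on the log2 scale.

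**Figure D4:**
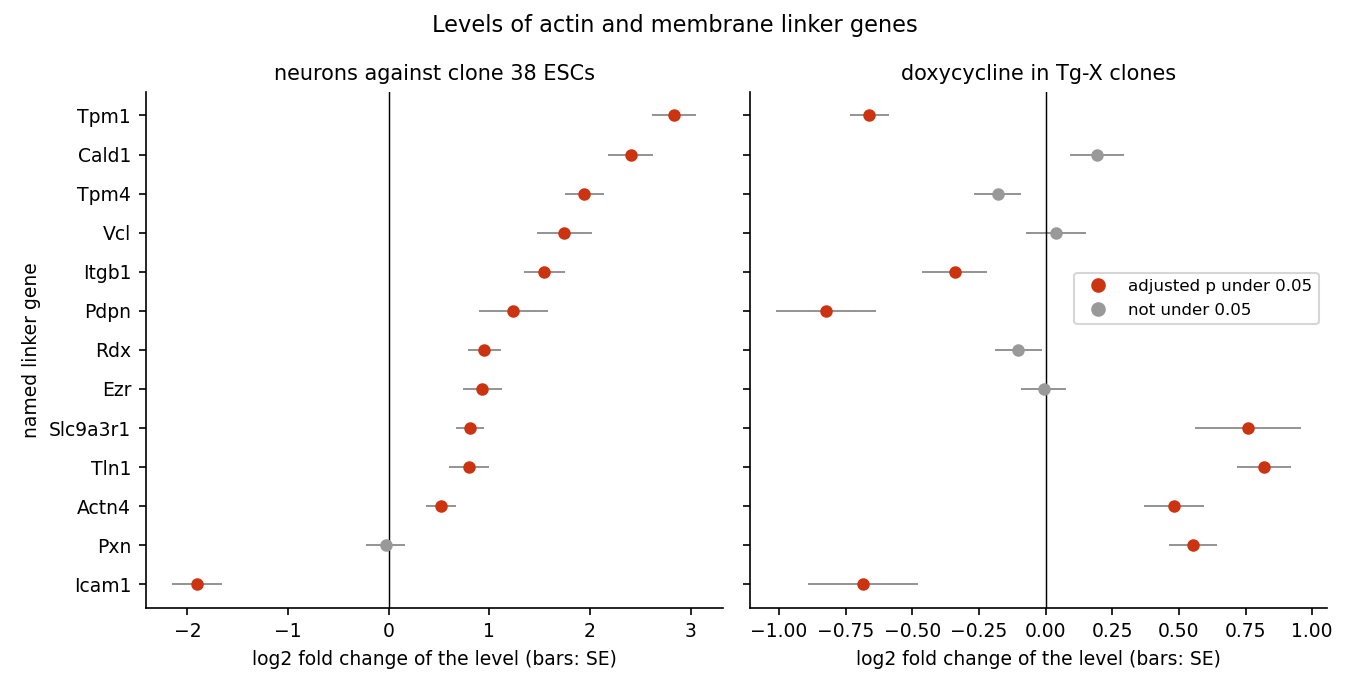
Log2 change of the level of the 13 actin and membrane linker genes named in the text, in neurons against clone 38 ESCs (left) and upon doxycycline in Tg-X clones (right), with bars for the SE and red for an adjusted p under 0.05. In neurons 11 of these genes are called higher, led by Tpm1 at 2.83, Icam1 is called lower at -1.90 and Pxn is not called, and in Tg-X clones the called genes lie on both sides of 0, between Pdpn at -0.82 and Tln1 at 0.82. The axes of the panels differ in scale.

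The plot of the linker genes shows Tpm1 (2.83), Itgb1 (1.54) and Pdpn (1.24) called higher in neurons and lower in treated Tg-X clones. Tln1, Slc9a3r1 and Actn4 were called higher in both comparisons, and Icam1 lower in both.

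Across the 48 ESC libraries, the genes whose Cast/all ratio was most like that of Flna by Pearson's r, among 3060 genes, were Bex1 (0.94), Msn (0.93), Rps4x (0.93), Hprt (0.93) and Wbp5 (0.93), all X-linked. For Msn they were Nr0b1 (0.95), Wbp5 (0.94), Bex1 (0.93), Flna (0.93) and Gprasp1 (0.93), also X-linked. These libraries share clones and the induced shift itself, so the values describe and do not test. By log2 CPM the nearest genes to Flna were Sptbn1 (0.85), Ddx6, Cbx5, Gpd2 and Aqr, and those to Msn were Nup210 (0.82), Ocrl, Pdcd6ip, Mllt10 and Nktr, the libraries sharing read class and depth. The levels of Flna and Msn had an r of 0.19 with each other.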

How the data were processed

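The authors aligned single-end RNA-seq reads to parental genomes (129/Sv, Cast/Ei) built on mm10 with TopHat2 2.0.6, counted bases at exonic polymorphic sites with SAMtools and counted reads per gene with HTSeq 0.6.1. The deposited counts are Cast and 129 base counts and HTSeq counts per gene, neither normalized, and a read over several polymorphic sites enters the former more than once. The deposited fraction is the Cast/all ratio, equal to Cast over all allele-specific reads in all 524023 rows read, and genes under 8 allele-specific reads are not listed. The intervals thus cover counting error only and are too narrow where reads were counted repeatedly.

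Of 60 libraries, 52 had a condition and 8 of clone 292, whose labels contradict each other, were left unassigned. Levels and allele reads were scaled by edgeR's TMM over 4752 genes listed in all 52. Genes listed in every library of a comparison with a mean of at least 20 reads were tested with edgeR 4.0.16 (quasi-likelihood, R 4.3.3). Clone was a term for doxycycline in ESCs, and line for doxycycline in neurons. Fits of neurons against ESCs had treatment as a term, with none for clone or line. Libraries were the replicates in these fits, so variation between clones or differentiations was not tested. For ratios the tested term was the treatment or cell type by allele interaction. Calls are at a Benjamini-Hochberg adjusted p under 0.05 over all genes tested. DESeq2 1.42.0, other read minima, the replicate number as a block, other scalings, and leaving out each library or clone were alternatives, and the fits were tested on simulated data. The limit of 3.3 HTSeq reads per allele-specific read between read classes, and the alternatives that use it, were chosen after seeing the data. Flna and Msn, the gene lists and the tests were chosen with earlier results of these data known. Named genes were the members, the X-linked list genes tested in Tg-X clones, the paralogs and the 6 largest called changes of the linker list per comparison, genes within 1 Mb, and the 5 nearest by correlation; a few of these are counted but not reported here by name. Promoter windows are from RefSeq (GRCm38.p6), where both members were found.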

Additional observations from a re-analysis of the deposited data

Results flagged for a closer look

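The shifts of the Cast/all ratio upon doxycycline had opposite signs in clones of the Tg-X kind and of the Tg-X;8 kind, and every clone of a kind moved the same way. The mean shift in Tg-X;8 clones exceeded that in Tg-X clones by 0.286 for Flna and by 0.354 for Msn. The transgene lay on the chromosome of the 129 allele in Tg-X;8 clones and on that of the Cast allele in Tg-X clones. Both genes were chosen for this pattern, and the difference was not tested. Of 10 groups of 4 or more clones examined, by untreated clone means or Tg-X shifts, 0 had a clone that stood apart by Dixon's criterion. Single libraries were not examined in this way.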

How the results depend on the processing

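The level call of Flna in neurons held under all 14 alternatives (1.92 to 2.62, log2), and Msn in Tg-12 clones kept its sign and stayed uncalled for the ratio. The allelic change of Flna in Tg-12 clones was -0.0072 with clone 160, and from -0.0033 to 0.106 with each library left out. Its level change there was -0.095 in the lower read class, -0.042 with clone 160 and from -0.136 to 0.119 with each library left out, and that of Msn from -0.046 to 0.280. The level of Msn in neurons gave -0.232 in the lower class, -0.142 from allele-specific reads and from -0.097 to 0.441 with each library left out. The allelic call of Flna in neurons was lost in the lower class (0.416, adjusted p = 0.133) and in untreated libraries only (0.532, adjusted p = 0.175).

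The untreated ratio of Flna by karyotype was -0.0026 with clone 160, -0.0121 relative to the X-linked median and from -0.00017 to 0.0196 with a library or clone left out, and that of Msn was 0.0021 in the lower class, -0.0274 with clone 160, -0.0235 relative to the X-linked median and from -0.0139 to 0.0146 with a library or clone left out. The untreated level of Msn was 0.327 (p = 0.145) in the lower class and from 0.285 to 0.637 with a library or clone left out (exact permutation p from 0.00952 to 0.227), its call being lost without an untreated library of clone 109 (replicate 1), 87 (replicate 2) or 38 (replicate 2), or without clone 85, 86, 190, 203b, 339, 228, 273 or 38, and that of Flna from -0.307 to 0.00597 (p from 0.00606 to 0.982). Mean shifts in Tg-X;8 clones were 0.118 for Flna and 0.134 for Msn in the lower class.

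Calls in the X-linked list fell to 3 in Tg-X clones with read class as a term. In clone 87 they fell to 0 with DESeq2, to 2 with read class as a term, to 2 with the replicate block and to between 1 and 3 with a library left out (1 without replicate 1 of either arm), and in Tg-X;8 clones they were 0 to 2, above 0 without 203b untreated replicate 1, 203b treated replicate 2 or 267 treated replicate 2. Calls in the linker list were 2 with the replicate block, 10 in the lower class and 3 to 9 with a library left out in Tg-X;8 clones (3 without 267 untreated replicate 2, 267 treated replicate 1 or 339 untreated replicate 2), and in neurons 12 with untreated libraries only and 18 to 33 with a library left out. The cause of these changes was not tested.

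Replicate numbers were not shown to pair libraries, since the correlation of deviations ran from -0.050 to 0.083 for ratios over 11 clones (0 over 0.1) and from -0.618 to 0.693 for levels (7 of 11 over 0.1). With the replicate block the Tg-12 values were 0.04 and -0.16 for the ratios and 0.04 and 0.16 for the levels of Flna and Msn, and the list calls in Tg-X clones were 5 and 16. Neither member was called in Tg-12 clones with or without the block, and the other comparisons of the members were not fitted with it.

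Over all genes, allelic calls went from 209 to 128 with DESeq2, 106 with read class as a term and 113 in the lower class in Tg-X clones, from 58 to 18 (DESeq2), 36 (replicate block) and 23 (lower class) in Tg-X;8 clones, and from 75 to 26 (DESeq2), 49 (replicate block) and 49 (read class) in clone 87. In neurons against ESCs they went from 359 to 109 (lower class) and 93 (untreated only), and level calls from 2327 to 1253 and 1006. For doxycycline in neurons DESeq2 called 25 in place of 127. In Tg-12 clones allelic calls went from 4 to 1 (DESeq2 or clone 160) and 2 (lower class), and level calls from 4 to 106 (DESeq2), 10 (clone 160), 1 (read class) and 0 (replicate block, lower class, allele-specific reads). Level calls in Tg-X;8 clones went from 391 to 143 (replicate block) and 241 (read class). Clone 87 in the lower class and doxycycline within neurons with a library left out could not be fitted, for want of residual degrees of freedom. Depth limited a ratio to 0.053 (Flna) and 0.044 (Msn) to either side in the median ESC library.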

Other observations

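The 8 libraries of clone 292 entered no comparison. Their Cast/all ratio of Flna ran from 0.402 to 0.596 (median 0.509) at 358 to 6972 allele-specific reads, and that of Msn from 0.544 to 0.653 (median 0.574) at 520 to 2878 reads. The HTSeq level of Flna was 356 to 1023 and that of Msn 193 to 343 per 1000000 HTSeq reads. In clone 160 the ratio of Flna was 0.499 ± 0.020 untreated and 0.471 treated, and that of Msn 0.664 ± 0.0043 untreated and 0.659 treated (SD, n = 2), with overlapping arms for both genes.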
